A study of Homo sapiens with 3 samples.

Results

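The TAM receptors AXL, TYRO3 and MERTK and their ligands GAS6 and PROS1 were examined in a lung cancer line before and after it became resistant to osimertinib. The 5 genes, 3 receptors and 2 ligands, were chosen as the members of this receptor family and its main ligands, and they are 5 of the 43316 genes on the array. Osimertinib is an inhibitor of the mutated epidermal growth factor receptor (EGFR). mRNA was measured once in each of 3 lines with an Agilent single-colour array of 58200 probes, of which 6 report the 5 members. H1975 (NCI-H1975) is an osimertinib-sensitive human non-small cell lung cancer line with an activating EGFR mutation. It also carries a further EGFR mutation that is associated with resistance to earlier EGFR inhibitors. OR1 and OR2 were selected independently from H1975 with osimertinib, raised in steps to at most 2 μmol/L over 4 months. All lines were grown in RPMI medium with fetal bovine serum. Each OR line is a single resistant derivative, and whether the drug was present when RNA was taken is not given in the sources used here.

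TAM receptors are receptor tyrosine kinases of the cell surface that bind phosphatidylserine-bearing membranes through a bridging ligand. GAS6 binds all members of the family, with the highest affinity for AXL, whereas protein S, the product of PROS1, binds TYRO3 and MERTK. Both ligands need vitamin K dependent carboxylation to bind phosphatidylserine. In epithelial tumours AXL is widely studied in resistance to EGFR inhibitors and in mesenchymal cell states, while MERTK is best known for the uptake of dying cells by macrophages.

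Each member is reported by probes of 60 bases whose position on hg19 is given in the files. The probe sequences are shown because each value of a member below is the signal of 1 such probe and not of the whole transcript. They are written 5′ to 3′ in lower case, as the first 30 bases of the probe, or as all 60 bases for GAS6.
AXL: tgcaatttcaaggttctaaccctatactgt
TYRO3: ctcaaaatatcctaagactaacaaaggcag
MERTK: taaagttgtataactgattaattttctgat
GAS6: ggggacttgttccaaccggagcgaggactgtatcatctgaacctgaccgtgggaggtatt
PROS1, first probe: ccagaacaaattttaacaaaaggacaacca
PROS1, second probe: gacaaagaattcttaaggcaccttttctct
The AXL probe (NM_021913) lies on the plus strand at chr19:41767395-41767454 and is listed for 3 RefSeq transcripts of AXL, so it does not separate them. The TYRO3 probe (NM_006293) lies at chr15:41871259-41871318 and the MERTK probe (NM_006343) at chr2:112786885-112786944, both on the plus strand. The GAS6 probe (NM_000820) lies on the minus strand at chr13:114531550-114531609. The first PROS1 probe (NM_000313) lies on the minus strand at chr3:93592149-93592208. The second PROS1 probe carries the same accession but is placed on the minus strand at chr3:90251422-90251481, 3.34 Mb from the first. RefSeq lists a pseudogene of PROS1, PROS2P, on the same chromosome, and no probe bears its name. The TYRO3 probe and each PROS1 probe are listed for 1 of the 2 RefSeq mRNAs of their gene. Whether they also report the other mRNA was not tested. Whether the probes lie in coding or untranslated exons was not annotated in the sources used here. No member probe shares a run of 20 bases with another probe of the array. GC content was 43.3% for AXL, 45% for TYRO3, 23.3% for MERTK, 55% for GAS6 and 35% for each PROS1 probe.

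Intensities are the scanner software's background-corrected signals in arbitrary units, and ratios were taken after each array was scaled to its 75th percentile. Those percentiles were 157 for H1975, 138 for OR1 and 162 for OR2. A ratio counted as higher at 2 or above and as lower at 0.5 or below, the thresholds of the study's methods. With 1 array per line no test of one line against another is possible, and the technical SD printed beside a log2 ratio, computed from the scanner's error estimate, covers the reading of the spots only. For bright probes that estimate is close to a fixed share of the signal, which gave a median technical SD of 0.21 for OR1 over H1975. Probes spotted 10 times on an array varied between their spots by a median SD of 0.05 (log2) on each array. All ratios to H1975 share the one H1975 array. In bulk RNA, fewer expressing cells and less RNA per cell cannot be told apart.

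AXL and TYRO3 moved in opposite directions in both resistant lines, and MERTK was well above background only in H1975. Of the ligands, GAS6 was at or below 0.5 in OR2 over OR1 (0.276), but not with another background correction (0.537). PROS1 in OR2 over OR1 was 1.80 and did not reach 2 with this scaling. In OR1, 2 members were at or above a ratio of 2 (AXL and GAS6) beside 9.17% of all genes, and 2 were at or below 0.5 (TYRO3 and MERTK, the latter as a bound) beside 9.58% of all genes. In OR2, 2 members were at or above 2 (AXL and PROS1) beside 7.72% of all genes, and 2 were at or below 0.5 (TYRO3 and MERTK) beside 8.70% of all genes. In both lines together AXL alone was higher, where 5.09% of all genes were, and TYRO3 and MERTK were lower, where 6.32% of all genes were.

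**Figure D1:**
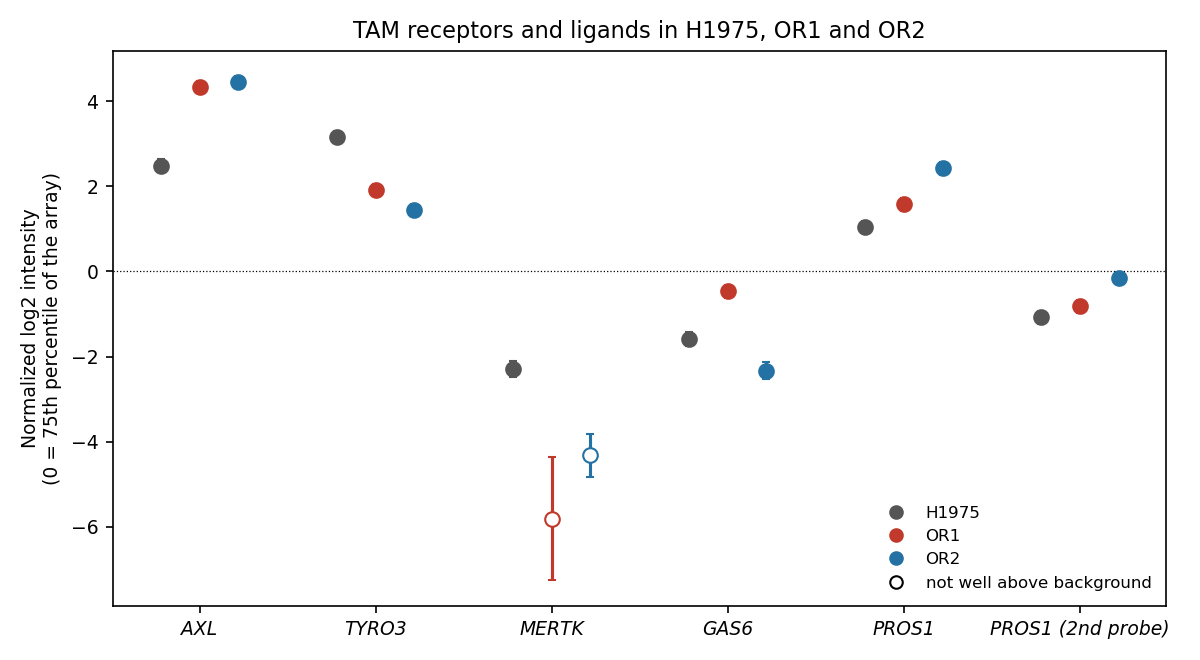
Normalized log2 intensity (y axis, 0 is the array's 75th percentile) of the 6 member probes (x axis) in H1975, OR1 and OR2, 1 array each. Bars are the technical SD, open circles mark values not well above background, and heights may be compared between lines within a probe only. AXL is higher in OR1 and OR2 than in H1975, TYRO3 is lower, MERTK is filled only in H1975, and GAS6 is highest in OR1 whereas PROS1 is highest in OR2.

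AXL, the receptor with the highest affinity for GAS6, had an intensity of 882 for H1975, 2784 for OR1 and 3531 for OR2. Both resistant lines were thus above the parental line. The scaled ratio to H1975 was 3.60 in OR1 (log2 1.85, technical SD 0.20) and 3.89 in OR2 (log2 1.96, technical SD 0.20). OR2 over OR1 was 1.08 (log2 0.11, technical SD 0.20), so the resistant lines differed by less than the technical SD, although spike-in scaling gave 1.72. Of 18591 genes well above background on all 3 arrays, 353 (1.90%) had a higher ratio than AXL in OR1 and 273 (1.47%) in OR2. AXL stayed at or above 2 in both lines under every scaling and background correction tried, from 2.38 to 3.65 in OR1 and from 3.77 to 4.21 in OR2.

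TYRO3, the family member best known from the nervous system, had an intensity of 1401.5 for H1975, 520 for OR1 and 438 for OR2. The order was the reverse of that of AXL. The ratio to H1975 was 0.423 in OR1 (log2 -1.24, technical SD 0.20) and 0.304 in OR2 (log2 -1.72, technical SD 0.20). In OR1 5.31% of the 18591 genes had a lower ratio than TYRO3, and in OR2 1.97% did. TYRO3 in OR2 over OR1 was 0.719 (log2 -0.48, technical SD 0.20), which did not reach the threshold and turned to 1.15 when arrays were scaled to their spike-in probes. Both resistant lines stayed at or below 0.5 in every setting, from 0.280 to 0.439 in OR1 and from 0.300 to 0.325 in OR2. TYRO3P, a pseudogene of TYRO3, had an intensity of 8.83 for H1975, 4.07 for OR1 and 5.19 for OR2 and was not well above background in any line.

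MERTK was dim. Its intensity was 32.0 in H1975, well above background, against 2.46 in OR1 and 8.09 in OR2, both not well above background. The lowest intensities called well above background were 12.6 for H1975, 11.4 for OR1 and 12.6 for OR2. Before correction the spot read 103 over a local background of 57 in H1975, 68.3 over 55 in OR1 and 74.2 over 55 in OR2. The OR lines therefore give bounds only, and MERTK was at most 0.407 of H1975 in OR1 and at most 0.384 in OR2. No ratio between OR2 and OR1 was taken. These bounds depend on the background correction: with normexp, which adds an offset of 50 to every signal, they were at most 0.817 and at most 0.742, both short of the threshold of 0.5.

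GAS6, the ligand common to the family, lay above H1975 in OR1 and below it in OR2 in each setting tried. Its intensity was 52.5 for H1975, 99.6 for OR1 and 32.2 for OR2, dim but each well above background. Before correction the spot read 117 over a local background of 58 in H1975, 159 over 56 in OR1 and 98.8 over 54 in OR2. These values did not overlap within their technical SD. The ratio to H1975 was 2.16 in OR1 (log2 1.11, technical SD 0.23) and 0.596 in OR2 (log2 -0.75, technical SD 0.26). With normexp correction the ratio in OR2 was 0.831 (log2 -0.27), a distance from H1975 close to that technical SD. OR2 over OR1 was 0.276 (log2 -1.86, technical SD 0.25), which made GAS6 the only member at or below 0.5 in that comparison, beside 2.89% of all genes, and no member was at or above 2, beside 2.48%. Only 45 of the 18591 genes (0.242%) had a lower ratio of OR2 over OR1. The combination of a ratio of at least 2 in OR1 with a ratio under 1 in OR2 was seen in 61 genes, 0.272% of the 22418 above background in at least 1 line. The ratio in OR1 was under 2 without scaling (1.90), with spike-in scaling (1.43) and with normexp correction (1.55), while OR2 over OR1 ranged from 0.276 to 0.537.

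PROS1 encodes protein S, an anticoagulant cofactor of activated protein C as well as a TAM ligand. Its first probe had an intensity of 326 for H1975, 411 for OR1 and 866 for OR2. The second probe read 74.4 for H1975, 78.4 for OR1 and 146 for OR2. OR2 was the highest line with each probe, but whether the second probe reports PROS1 or its pseudogene was not tested. By the first probe the ratio to H1975 was 1.44 in OR1 (log2 0.53, technical SD 0.20) and 2.59 in OR2 (log2 1.37, technical SD 0.20). By the second probe it was 1.20 in OR1 (log2 0.26, technical SD 0.21) and 1.91 in OR2 (log2 0.93, technical SD 0.21), so that only the first probe reached 2. OR2 over OR1 was 1.80 with the first probe and 1.59 with the second. The value in OR1 turned to 0.954 with spike-in scaling, whereas OR2 ranged from 2.22 to 2.73 over all settings. The nearest gene on the lower side of PROS1 in the array's annotation, the unnamed transcript ENST00000474651, lies 11.6 kb from the second probe and had intensities of 31.6, 38.5 and 71.4 in H1975, OR1 and OR2, with ratios of 1.39 and 2.20.

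**Figure D2:**
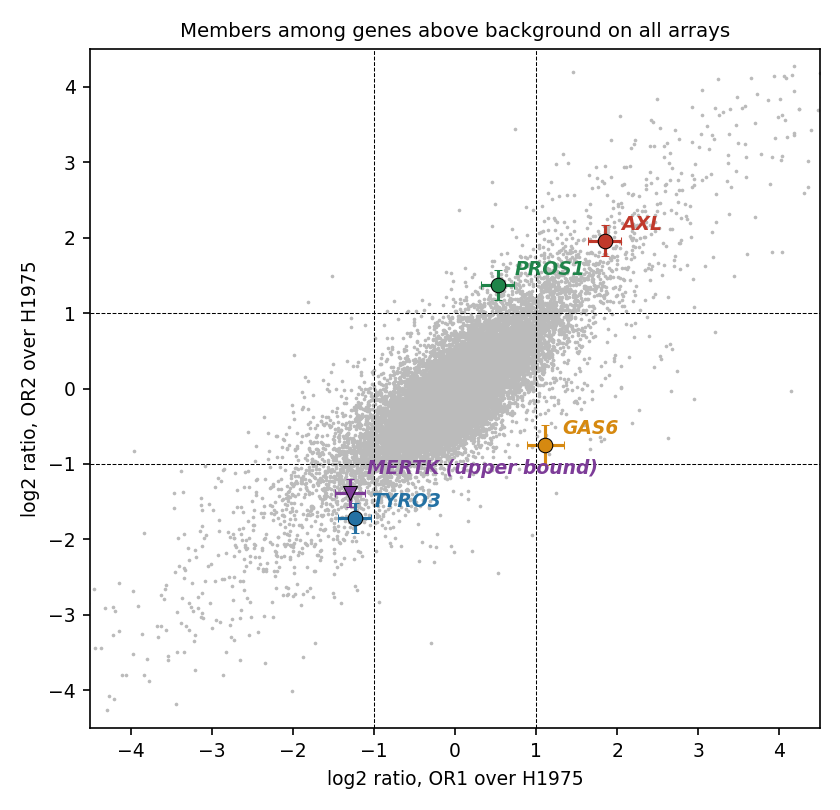
Log2 ratio over H1975 in OR1 (x axis) and OR2 (y axis), with grey points for genes that were well above background in every line, coloured points for the members and bars for the technical SD. Dashed lines mark ratios of 2 and 0.5, the triangle for MERTK is an upper bound in both directions, both axes contain the shared H1975 array, and genes beyond 4.5 are not shown. AXL lies above both thresholds and TYRO3 below both, while GAS6 sits below the diagonal at 1.11 and -0.75 and PROS1 above it at 0.53 and 1.37.

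The genes with the most similar pattern were found by the Euclidean distance between pairs of log2 ratios, OR1 and OR2 over H1975, among 18590 other genes well above background on all arrays, a measure that rests on 3 lines. Nearest to AXL were MAP9 (ratios 3.53 and 3.98), GARNL3 (3.43 and 4.13) and BHLHB9 (3.71 and 4.20), and 22 genes lay within a distance of 0.2. Nearest to TYRO3 were SERINC2 (0.423 and 0.318), KLF7 (0.416 and 0.291) and RNA5-8S5 (0.440 and 0.293), with 31 genes within that distance. GAS6 had only 4 genes within it, the nearest being TRIML2 (2.23 and 0.549), THC2642375 (2.17 and 0.655) and LOC100130938 (2.02 and 0.649). Nearest to PROS1 were LOC101930611 (1.39 and 2.54), PRDM12 (1.48 and 2.67) and SMIM6 (1.47 and 2.45), with 34 genes within 0.2. MERTK was left out of this search because it was not above background in the OR lines.

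The chromosomal neighbours of AXL and TYRO3 did not share the ratios of these 2 members. The 20 nearest genes well above background on all arrays, within 596 kb of AXL, had median log2 ratios of 0.21 (OR1) and -0.09 (OR2), and none of them exceeded AXL in either line. HNRNPUL1, on one side of AXL, had ratios of 1.04 and 0.836, and CYP2S1, a cytochrome P450 gene on the other side, had ratios of 0.152 and 0.462. Around TYRO3 the medians were 0.17 and -0.02 and no neighbour was lower than TYRO3. Its flanking genes RPAP1 (1.39 and 1.13) and MGA (1.27 and 1.09) did not pass a threshold. Around MERTK the medians were -0.01 and -0.21, and its flanking genes were ANAPC1 (1.02 and 0.867) and TMEM87B (0.774 and 0.917). MERTK itself did not meet the filter for neighbours, and a gene not above background in the OR lines could not enter the set. Whether such genes near MERTK shared its fall was therefore not tested. The 20 nearest genes of PROS1 spread over 5399 kb on either side, with medians of 0.07 and 0.23, and none was above PROS1 in OR2. In OR1, 2 were above it, DHFRL1 (1.87) and lnc-C3orf38-1 (1.51), both named after their values were seen.

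The neighbourhood of GAS6 was more mixed, with medians of -0.30 in OR1 and -0.08 in OR2. Its flanking features THC2591638 (0.507 and 0.469) and THC2779442 (0.670 and 0.581) were below 1 in both lines, whereas GAS6 was above 1 in OR1. In OR2, 3 neighbours were lower than GAS6, namely both flanking features and TMEM255B (0.316), and in OR1 RASA3, a Ras GTPase-activating gene 216 kb away, was higher (4.07); TMEM255B and RASA3 are named after their values were seen. No neighbour had a lower ratio of OR2 over OR1 than GAS6. GAS6-AS1, the gene antisense to GAS6, has 3 probes. At chr13:114548583-114548642 its intensity was 774 for H1975, 610 for OR1 and 1153 for OR2 (ratios 0.898 and 1.45). At chr13:114536482-114536541 it was 530, 412 and 386 (ratios 0.886 and 0.709). The third probe, at chr13:114546044-114546103, read 5.90 for H1975, 4.66 for OR1 and 16.6 for OR2 and was well above background in OR2 alone, at least 1.29 times H1975. None of the GAS6-AS1 probes had the OR1-high, OR2-low order of GAS6, and in OR2 they disagreed with each other.

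**Figure D3:**
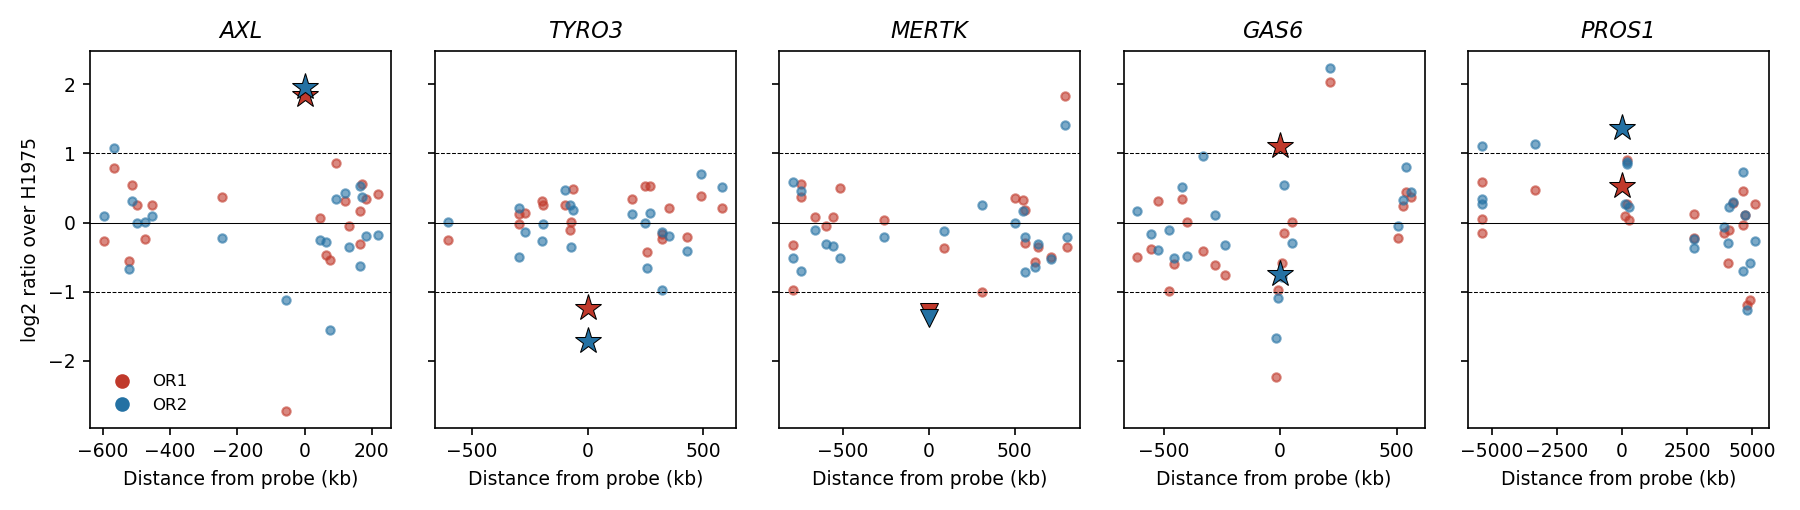
Log2 ratio over H1975 (y axis) of each member (stars, or triangles for the MERTK upper bounds) and of the 20 nearest genes well above background on all arrays (circles), against distance from the member's probe in kb (x axis, a different range in each panel). Red is OR1 and blue is OR2. AXL and TYRO3 lie outside the range of their neighbours in the direction of their own ratio, and GAS6 in OR1 is exceeded by 1 neighbour. The MERTK bounds also lie below their neighbours, but genes not above background in the OR lines could not be among these.

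The start region of AXL in RefSeq (GRCh38.p14, plus strand, chr19:41218973-41219252, 250 bases before and 30 after the annotated start) is shown because AXL was the one member that was higher in both lines and because transcription factors of the SP1 family are known to act on it. Capitals mark the SP1 box searched for, GGGCGG on either strand.
AXL start region: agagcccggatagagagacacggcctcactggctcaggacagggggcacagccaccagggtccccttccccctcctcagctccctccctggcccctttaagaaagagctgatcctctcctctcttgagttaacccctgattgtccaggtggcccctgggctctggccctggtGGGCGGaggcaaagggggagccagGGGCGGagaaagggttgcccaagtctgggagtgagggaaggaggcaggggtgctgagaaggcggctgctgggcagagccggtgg
The box occurs 2 times in it, and its GC content was 65.4%. The same letters occur in 44.1% of 35116 RefSeq start regions of this length, and in the first start region of the other members 3 times for TYRO3, 5 times for MERTK, 3 times for GAS6 and 2 times for PROS1. The AP-1 motif TGANTCA, in 7.35% of start regions, was found 1 time for TYRO3 and not in the first start region of the other members. The TEAD motif GGAATG, in 13.3% of start regions, was found in none of the members' first start regions and 1 time in a second start region of AXL. A match of letters is a description and not a bound site.

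Of the 17 genes listed as regulators of AXL transcription, all above background, none was at or above 2 in both resistant lines and 1 was at or below 0.5 in both. That gene was WWTR1, which encodes the transcriptional coactivator TAZ, with intensities of 1370, 531 and 590 in H1975, OR1 and OR2 (ratios 0.442 and 0.419). JUN, an AP-1 subunit, had ratios of 0.504 and 0.406, of which only the second reached the threshold, whereas with spike-in scaling both did (0.334 and 0.428). The other members of the list were between these thresholds, such as SP1 (0.696 and 0.693), FOSL1 (0.716 and 0.563), YAP1 (1.74 and 1.17) and TEAD1 (1.55 and 1.63). The list had median log2 ratios of -0.07 (OR1) and -0.20 (OR2), beside 0.03 and -0.05 over all genes.

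Over 9 lists of genes that act with the TAM system, 95 genes were on the array and 79 were above background in at least 1 line. Of those, 4 (5.06%) were at or above 2 in both lines and 4 (5.06%) at or below 0.5 in both, beside 5.09% and 6.32% of all genes. With spike-in scaling 2 genes were higher in both and 5 lower in both. That scaling shifted the log2 ratios of all genes by -0.60 in OR1 and 0.08 in OR2. The shares of all genes under it are not given, so these 2 counts are not a result about the lists. Among the 25 signalling adaptors 24 were above background, 3 were higher in both lines and none was lower in both. VAV3 had intensities of 154 for H1975, 909 for OR1 and 879 for OR2 (ratios 6.74 and 5.56). TNS2, a focal adhesion protein, had 173, 371 and 504 (ratios 2.45 and 2.84). PIK3R2, a regulatory subunit of phosphoinositide 3-kinase, had 13522, 27449 and 28104 (ratios 2.32 and 2.02). With spike-in scaling TNS2 (1.62) and PIK3R2 (1.53) did not reach 2 in OR1, so that VAV3 was the 1 adaptor higher in both, and NCK2 (0.357 and 0.477) was lower in both. RANBP9 passed in OR2 only (1.83 and 2.11), NCK2 was lower in OR2 only (0.540 and 0.452), and the tyrosine kinase gene SRC had ratios of 1.85 and 1.39. The adaptors had median log2 ratios of 0.03 (OR1) and 0.24 (OR2).

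None of the 5 genes of vitamin K dependent carboxylation, the step that makes the ligands active, passed a threshold in either line. All were above background, with ratios of 1.01 and 0.738 for GGCX, the carboxylase, and 1.60 and 1.18 for VKORC1, the epoxide reductase. Of the other TAM ligands listed, TUB and TULP1 were not well above background in any line. LGALS3, the gene for galectin-3, had intensities of 27811, 7861 and 17107 (ratios 0.322 and 0.599) and so passed in OR1 only.

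Genes for the cleavage of the receptors at the cell surface included ADAM10 (1.06 and 0.805) and ADAM17 (0.927 and 0.936), neither past a threshold. RHBDF1, whose product guides the maturation of ADAM17, had intensities of 1470, 507 and 748 (ratios 0.394 and 0.496) and was the 1 of 6 genes above background in this list that was lower in both lines. With spike-in scaling RHBDF1 was 0.522 in OR2, and no gene of the list was lower in both. In the list of phosphatidylserine exposure, 10 of 11 genes were above background in at least 1 line and none passed in both lines. The scramblase family gene PLSCR4 was well above background in OR1 alone, with an intensity of 52.3 against 2.80 in H1975 and 2.83 in OR2, at least 4.75 times H1975. Its relative PLSCR1 had ratios of 0.458 and 0.518.

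Among other receptors and bridging proteins for phosphatidylserine, 8 of 13 were above background. ITGB3, the integrin β3 subunit, had intensities of 842, 209 and 229 (ratios 0.283 and 0.264) and was the only one lower in both lines. Its partner subunit gene ITGAV had 0.534 and 0.611, and the bridging protein MFGE8 had 1.29 and 1.53, none past a threshold. TIMD4, HAVCR1, STAB1, STAB2 and CD300LF were not well above background in any line. No feedback gene passed in either line, with ratios of 1.88 and 1.85 for SOCS1 and 1.81 and 1.92 for IFNAR1.

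Of 9 anticoagulant partners of protein S, 4 were above background, of which 1 was higher and 1 lower in both lines. THBD encodes thrombomodulin, the receptor that turns thrombin into an activator of protein C, and its intensities were 52.2, 152 and 133 (ratios 3.31 and 2.47). PROC, protein C itself, read 140 in H1975, 8.09 in OR1, not well above background, and 25.3 in OR2. It was at most 0.0932 of H1975 in OR1 and 0.176 in OR2. PROCR, the endothelial protein C receptor, had 1.87 and 1.48, and the coagulation inhibitor TFPI had 1.13 and 1.27, neither past a threshold. F5, C4BPA, C4BPB, SERPINC1 and F2 were not well above background in any line.

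**Figure D4:**
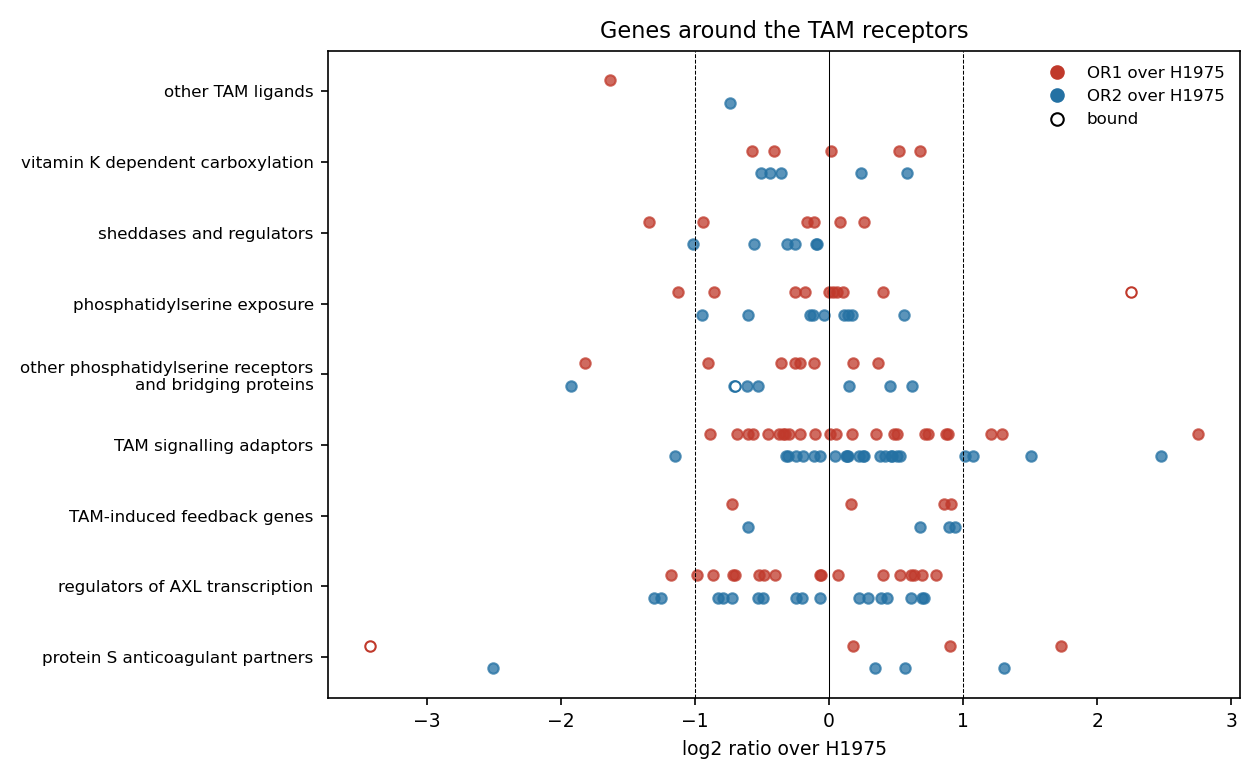
Log2 ratio over H1975 (x axis) of the genes above background in each of 9 lists (y axis), 1 point per gene, red for OR1 and blue for OR2, open where only a bound exists. Dashed lines mark ratios of 2 and 0.5, and most genes lie between them. VAV3 at 2.75 and 2.47 is the highest of the adaptors, and PROC is the lowest gene shown.

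The identity of the lines was checked with marker lists. Of 9 epithelial markers 8 were well above background in all lines and SFTPB, a surfactant gene, was not well above background in any. EPCAM (0.0370 and 0.0725), CDH1 (0.0205 and 0.0800), KRT7 (0.164 and 0.170) and KRT19 (0.463 and 0.492) were lower in both resistant lines, but with spike-in scaling KRT19 was 0.519 in OR2. The other detected markers did not pass in both lines, with KRT8 at 1.12 and 0.964, KRT18 at 0.884 and 0.806, NAPSA at 0.770 and 1.57, and NKX2-1, a lung lineage factor, at 0.252 and 1.36. The summed level of the list, in units of each array's 75th percentile, was 2486 for H1975, 1073 for OR1 and 1072 for OR2. Of the mesenchymal genes, ZEB1, a repressor of epithelial genes, was higher in both (4.74 and 5.14), and VIM had 1.58 and 1.83. FN1, the fibronectin gene, had 0.735 and 0.205 and so was lower in OR2, and SNAI2 had 0.617 and 0.546. ZEB2 was well above background in OR1 alone, at least 2.61 times H1975, and CDH2 and TWIST1 were not well above background in any line. The median log2 ratio over this list was 0.11 for OR1 and 0.00 for OR2. Of 5 macrophage markers on the array, CD163 was not well above background in any line and CD14 (4.25 and 6.56) and CSF1R (0.249 and 0.375) moved in opposite directions. PTPRC (1.12 and 0.949) and TYROBP (1.21 and 0.665) were dim but above background in all lines and passed no threshold. The macrophage markers had summed levels of 18.8, 11.8 and 17.6. Endothelial markers summed to 0.586, 0.731 and 0.662, with KDR not well above background. The other endothelial markers were dim but above background in all lines: PECAM1 (2.10 and 1.19), CDH5 (0.664 and 1.21) and VWF (0.776 and 0.927). Fibroblast markers summed to 3.0, 4.76 and 0.611, with COL3A1, DCN and PDGFRA not well above background. COL1A1 had 1.45 and 0.183, and LUM was well above background in OR1 alone, at least 5.43 times H1975. The part of these differences in the ratios of the members was not tested.

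**Figure D5:**
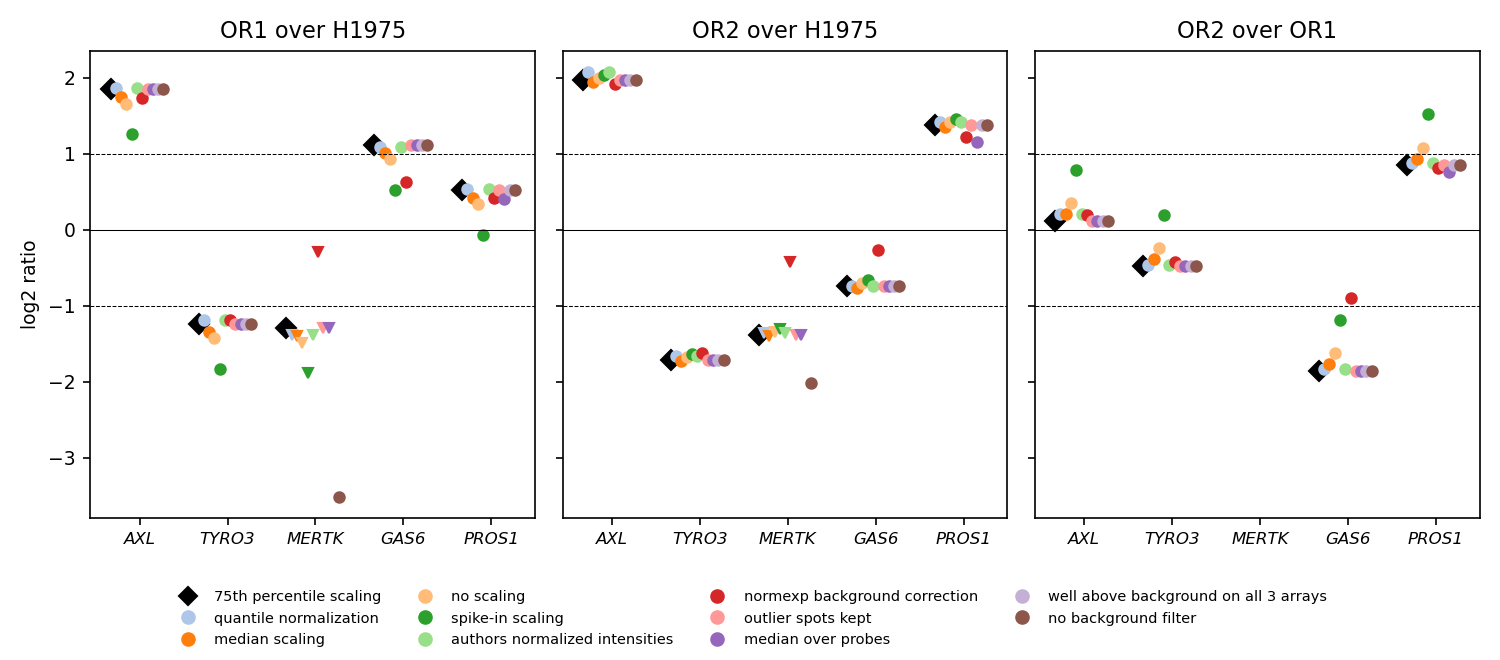
Log2 ratio (y axis) of each member (x axis) in the 3 comparisons, with the 75th percentile scaling as black diamonds and the alternatives in colour; triangles are upper bounds, and the black diamond of MERTK is one too. Dashed lines mark ratios of 2 and 0.5. AXL stays above 2 and TYRO3 below 0.5 in both lines over H1975 in each setting shown. MERTK in both lines and GAS6 in OR1 cross a threshold in some settings. In OR2 over OR1, GAS6 crosses 0.5 and PROS1 crosses 2 in some.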

How the data were processed

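Total RNA of each line was labelled with Cy3 and hybridized to 1 array per line, all on 1 slide. The deposited scanner files hold spot intensity values that the authors' Agilent Feature Extraction software corrected for background, with its error estimate (version 9.5.1.1 per the labels, 10.7.1.1 per the file headers). A deposited table of the authors' normalized intensity values, whose method is not given in the sources used here, differed from quantile-normalized scanner values by a median of 0.00135 on the log2 scale. Control and outlier spots were left out (45 to 61 outlier spots per array). Repeated spots were averaged as log2 values, each array's 75th percentile was subtracted, and 1 probe per gene was kept, by the highest mean over the arrays. A probe was counted as above background by the scanner's call, which held for 45.6% to 45.9% of probes per array. No spot was saturated, and no pseudocount was added.

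Where a probe was above background in only one of the lines compared, the other was set to the lowest intensity called above background on its array, or to its own value if higher, and the ratio was written as a bound. Where neither was above background no ratio was taken. Ratios of 2 and 0.5 follow the study's methods. Each line is 1 sample, so that single lines have no test, pairing or SD between replicates, and the number of arrays limits the precision. Named genes were the members with every probe, their near copies and antisense genes, pathway genes past a threshold in both lines (up to 3 each way per list), the 3 nearest patterns and the flanking genes. Other genes are named as examples or because of their role in the text, after their values were seen. The members and lists were chosen with earlier results of these data known. RefSeq (GRCh38.p14) gave names and start regions, all 5 members matched, and it was not used for positions of probes, which are on hg19. Scripts were tested on simulated data. Alternatives covered the scaling, the background correction, the filter, the probe rule, the threshold and limma. Python 3.11.15, numpy 2.4.6, pandas 2.3.3, R 4.3.3 and limma 3.58.1 were used.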

Additional observations from a re-analysis of the deposited data

Results flagged for a closer look

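GAS6 stood on opposite sides of H1975 in the resistant lines, with OR1 at 2.16 and OR2 at 0.596 times the parental value. Its probe was dim, and with normexp correction OR1 was at 1.55 and OR2 at 0.831. With 1 array per line, this difference between OR1 and OR2 was not tested.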

How the results depend on the processing

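No paired analysis was possible because each line has 1 array. Of 250 values under alternatives, 200 were labelled as the same and 50 as moved, by the technical spread for ratios and by a count range for counts. The values include medians of neighbouring genes, which have no technical SD. They also include counts from limma, from which no call of a member is drawn. Past 1 turned 2 ratios. Many of the 200 could not change. AXL, TYRO3 and GAS6 have 1 probe each and were above background on every array. Changes to the probe rule or the filter therefore left their ratios as they were. The authors' values nearly repeat quantile normalization. A ratio counted as unchanged could also cross a threshold, as GAS6 did at 1.90 in OR1 without scaling. Scaling to the 7 spike-in probes shifted the median log2 ratio of all genes by -0.60 in OR1 and 0.08 in OR2. Under it OR1 over H1975 became 2.38 for AXL, 0.280 for TYRO3, at most 0.269 for MERTK, 1.43 for GAS6 and 0.954 for PROS1. OR2 over OR1 became 1.72 for AXL, 1.15 for TYRO3, 0.439 for GAS6 and 2.86 for PROS1, so that 1 member was at or above 2 in OR1 and 1 in OR2 over OR1, and 2 pathway genes were higher in both lines. Without scaling (shift -0.19 in OR1), MERTK was at most 0.356 in OR1, OR2 over OR1 was 1.27 for AXL, 0.843 for TYRO3 and 2.11 for PROS1, and 1 member was at or above 2 in each of these comparisons. Median scaling shifted OR1 by -0.11 and changed no call of a member.

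With normexp, MERTK was at most 0.817 (OR1) and 0.742 (OR2), and GAS6 was 1.55 in OR1, 0.831 in OR2 and 0.537 in OR2 over OR1. The counts were then 1 member higher in OR1, 1 lower in OR1, 1 lower in OR2, 1 lower in both and 0 lower in OR2 over OR1. The median over probes gave 2.22 for PROS1 in OR2. Requiring a signal above background on all 3 arrays leaves no value for MERTK, and 1 member was then lower in OR1, 1 in OR2 and 1 in both. Without any filter MERTK was 0.0876 in OR1 and 0.246 in OR2, values that rest on signals not well above background, and 1 member was at or above 2 in OR2 over OR1. At a ratio of 1.5, 1 member was higher in OR2 over OR1, and 3 in place of 2 were lower in OR2 over H1975. At a ratio of 4 the count of members was 0 in every comparison and direction. The shares of all genes under the alternatives of this section are not given. The counts of members and pathway genes under them therefore cannot be set beside all genes and are not a result about these sets. limma took OR1 and OR2 as 2 samples of a group and H1975 as a lone sample assumed to vary like them. Its log2 differences from H1975 were 1.90 for AXL, -1.48 for TYRO3, 0.95 for PROS1 and 0.18 for GAS6. For MERTK it was -2.77, which rests on signals not well above background in the OR lines. These are means of OR1 and OR2, which for GAS6 lay on opposite sides of H1975. With a lone H1975 array no call of a member is drawn from this fit. The causes of these differences were not tested beyond the construction of each alternative. Probes near background, such as those of MERTK and GAS6, were the ones whose ratios depended on the correction.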
